A study of Homo sapiens with 6 samples.

Results

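CRIP2, a small LIM-domain protein gene, was examined together with the related CRIP, CSRP, FHL and PDLIM genes in SW480 cells grown on a soft or a stiff substrate. The set held every row of the deposited mRNA table whose symbol was CRIP1, CRIP2 or CRIP3 or began with CSRP, FHL or PDLIM, and 8 of the 8529 genes of the table met this rule: CRIP1, CRIP2, CSRP2, FHL2, PDLIM1, PDLIM2, PDLIM4 and PDLIM7. The remaining members of these families were not analysed here. CRIP2 itself was chosen by its FPKM, which was lower at 25 kPa than at 2 kPa in these same libraries, so its values are given as a description without a test, while the 7 relatives entered by name. SW480 is an established cell line from a human colorectal adenocarcinoma and was labelled wild type. The cells were seeded on 6-well plates carrying a hydrogel of 2 kPa (soft) or 25 kPa (stiff) and were harvested after 72 h, with 3 libraries at each stiffness and no other treatment in the labels. The labels describe triplicates of 1 line and do not say that they were independent cultures, so the p-values measure the spread between these libraries, which may be technical. The comparison addresses how the stiffness of the matrix alters gene expression in a colorectal cancer line.

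A LIM domain is a stretch of protein that holds zinc ions through conserved cysteine, histidine and aspartate residues and serves as a docking surface for other proteins. Many LIM proteins sit on actin filaments and at focal adhesions, the sites where integrins join the cytoskeleton to the matrix, and several move between the cytoskeleton and the nucleus. The CRIP proteins consist of little more than LIM domains. CSRP proteins bind alpha-actinin and zyxin, FHL proteins are scaffolds made almost wholly of LIM domains, and PDLIM proteins join a PDZ domain, which binds alpha-actinin, to LIM domains at the other end.

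CRIP2 and CRIP1 are neighbours. In the GENCODE annotation of GRCh38, CRIP2 spans chr14:105472962-105480170 and CRIP1 spans chr14:105486317-105488947, both on the forward strand, with 6146 bp between them. The GENCODE transcripts used here encode 208 residues for CRIP2 and 77 residues for CRIP1. A search for the spacing of zinc-binding residues found 2 LIM domains in CRIP2 and 1 in CRIP1. The coding sequences of the 3 domains are shown because they are the part the pair share and where reads of one gene could most easily be taken for the other. They read 5′ to 3′ on the forward strand, joined across introns, and capitals mark the codons of the 8 zinc-binding positions. The CRIP1 domain covers nt 10 to 168 of the coding sequence and lies within chr14:105487269-105488363, from exon 1 to exon 3 of 5. The first CRIP2 domain covers nt 13 to 171 and lies within chr14:105474875-105478482, from exon 1 to exon 3 of 8. The second covers nt 376 to 534 and lies within chr14:105479017-105479468, from exon 5 to exon 7.
CRIP1 LIM domain: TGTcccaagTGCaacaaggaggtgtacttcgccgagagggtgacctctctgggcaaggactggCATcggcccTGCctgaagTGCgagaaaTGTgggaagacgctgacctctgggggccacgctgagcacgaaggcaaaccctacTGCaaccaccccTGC
CRIP2 LIM domain 1: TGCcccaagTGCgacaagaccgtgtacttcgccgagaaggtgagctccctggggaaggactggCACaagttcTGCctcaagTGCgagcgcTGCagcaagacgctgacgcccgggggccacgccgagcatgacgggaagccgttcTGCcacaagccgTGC
CRIP2 LIM domain 2: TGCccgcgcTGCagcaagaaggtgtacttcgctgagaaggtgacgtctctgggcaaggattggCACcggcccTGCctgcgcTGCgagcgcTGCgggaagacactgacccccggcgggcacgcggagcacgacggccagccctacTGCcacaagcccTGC

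Each stretch was 159 nt long, and no gap was needed to align them. The CRIP1 domain shared 128 of 159 bases (80.5%) with the second CRIP2 domain and 124 (78.0%) with the first, and the CRIP2 domains shared 124 bases (78.0%) with each other. The longest run of bases common to the transcripts of CRIP1 (1311 nt) and CRIP2 (1857 nt) was 16 nt. How the authors assigned reads that match both genes is not given in the sources used here.

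CRIP2 was lower in every 25 kPa library than in any 2 kPa library. Its level was 19.7, 14.2 and 12.0 FPKM (fragments scaled to exon length and to the mapped reads of the library) in 2 kPa replicates 1, 2 and 3, and 4.42, 4.30 and 4.30 FPKM in the 25 kPa replicates. The soft libraries were spread far more widely than the stiff ones. The mean was 15.3 ± 3.95 FPKM at 2 kPa and 4.34 ± 0.0693 FPKM at 25 kPa (SD, n = 3 each), which leaves 28.4% of the soft level, a 3.52-fold lower mean. On the log2(FPKM + 1) scale, used for all differences below, CRIP2 differed by −1.58 (SE 0.19), 25 kPa minus 2 kPa. Leaving out 1 library at a time gave −1.40 (without 2 kPa replicate 1) to −1.73 (without 2 kPa replicate 3). Among all genes of the table ranked by mean FPKM, CRIP2 stood at percentile 81.1 at 2 kPa and 59.1 at 25 kPa. In whole-culture RNA, fewer cells carrying a transcript and less of it per cell cannot be told apart.

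CRIP1, cysteine-rich intestinal protein 1, is known for its abundance in the intestine and in immune cells. It was the most abundant of the 8 genes. Its level was 191, 143 and 112 FPKM at 2 kPa and 74.8, 68.8 and 85.5 FPKM at 25 kPa, so that the groups did not overlap, the stiff libraries being lower. The mean was 148 ± 39.9 FPKM at 2 kPa and 76.4 ± 8.43 FPKM at 25 kPa (SD, n = 3 each), or 51.4% of the soft level. The log2 difference was −0.92 (SE 0.19, 95% interval −1.35 to −0.49). By limma over all 8529 genes, the unadjusted p was 0.00100 and the Benjamini-Hochberg adjusted p was 0.143, which did not pass the threshold of 0.05. CRIP1 ranked 59 by p. Over 14 alternatives its adjusted p ran from 0.0853 to 0.453 and its difference from −1.11 to −0.72, always lower at 25 kPa.

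Within single libraries the CRIP genes did not keep 1 ratio. CRIP1 stood at 9.71, 10.0 and 9.32 times the FPKM of CRIP2 at 2 kPa and at 16.9, 16.0 and 19.9 times at 25 kPa. The means were 9.69 ± 0.359 and 17.6 ± 2.02 (SD, n = 3 each), and the groups did not overlap. The ratio carries the selection of CRIP2 and was not tested. The 2 kPa libraries that differed in the level of each gene, replicate 1 being high and replicate 3 low, thus had close ratios. Since FPKM is scaled by transcript length, these ratios compare levels per length.

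CSRP2, which encodes a smooth muscle LIM protein that binds actin-associated partners, had higher values at 25 kPa. Its level was 11.9, 10.8 and 12.6 FPKM at 2 kPa and 16.5, 14.1 and 15.2 FPKM at 25 kPa, again without overlap between the groups. The mean was 11.7 ± 0.900 FPKM at 2 kPa and 15.3 ± 1.18 FPKM at 25 kPa (SD, n = 3 each), a 1.30-fold higher mean. The log2 difference was 0.35 (SE 0.13, 95% interval 0.06 to 0.65), with an unadjusted p of 0.0251 and an adjusted p of 0.403 by limma. With FPKM rescaled to equal library sums the difference was 0.23. At 2 kPa, CRIP2 was 1.65, 1.32 and 0.954 times CSRP2 in replicates 1 to 3. At 25 kPa it was 0.269, 0.305 and 0.283 times CSRP2. CRIP2 and CSRP2 thus lay at overlapping levels in the soft libraries and far apart in the stiff ones.

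**Figure D1:**
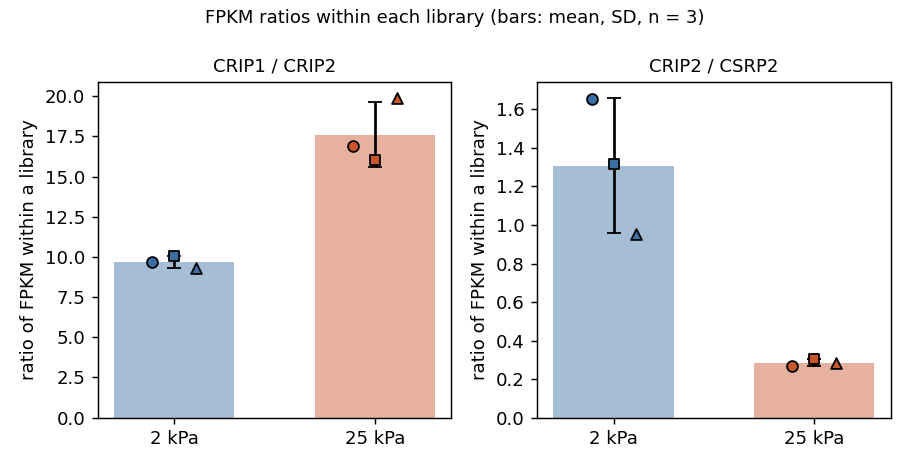
Ratio of CRIP1 to CRIP2 (left) and of CRIP2 to CSRP2 (right), each computed from the FPKM of 1 library, with circles, squares and triangles for replicates 1, 2 and 3 and bars for the mean and SD of 3 libraries. The CRIP1 to CRIP2 ratio averages 9.69 at 2 kPa and 17.6 at 25 kPa, and the CRIP2 to CSRP2 ratio averages 1.31 at 2 kPa and 0.285 at 25 kPa.

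FHL2, a LIM-only scaffold that binds integrins and transcription factors, overlapped between the groups. It read 4.02, 4.97 and 1.37 FPKM at 2 kPa and 2.85, 2.92 and 2.21 FPKM at 25 kPa. The lowest and the highest of the 6 values were both soft libraries. The means were 3.45 ± 1.87 and 2.66 ± 0.391 FPKM (SD, n = 3 each), and the log2 difference was −0.18 (95% interval −0.97 to 0.60), with an adjusted p of 0.915 by limma. It became 0.08 without 2 kPa replicate 2.

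The 4 PDLIM genes overlapped between the groups as well. PDLIM7, also known as Enigma, read 3.56, 2.80 and 3.34 FPKM at 2 kPa and 5.30, 3.73 and 2.84 FPKM at 25 kPa, a log2 difference of 0.20 (95% interval −0.35 to 0.75) with an adjusted p of 0.856 by limma. It became 0.014 without 25 kPa replicate 1, 0.37 without 25 kPa replicate 3 and 0.13 without 2 kPa replicate 2. PDLIM2, which also takes part in the breakdown of signalling proteins in the nucleus, read 3.24, 3.80 and 2.67 FPKM at 2 kPa and 3.21, 4.94 and 3.02 FPKM at 25 kPa. Its log2 difference was 0.14 (95% interval −0.40 to 0.68, adjusted p = 0.904 by limma) and became −0.03 without 25 kPa replicate 2. Both genes had the highest single value in a stiff library, and the rest of their values were mixed.

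PDLIM1, also named CLP36 or Elfin, read 1.41, 2.27 and 0.27 FPKM at 2 kPa and 0.74, 2.22 and 1.09 FPKM at 25 kPa. Its log2 difference was 0.08 (95% interval −0.76 to 0.91, adjusted p = 0.969 by limma). It became −0.31 without 2 kPa replicate 3, −0.18 without 25 kPa replicate 2, and −0.01 with equal library sums. PDLIM4, also named RIL, was the least abundant member at 1.20, 1.26 and 0.14 FPKM at 2 kPa and 1.03, 1.05 and 0.31 FPKM at 25 kPa. Its log2 difference was −0.02 (95% interval −0.69 to 0.65, adjusted p = 0.989 by limma). It became 0.13, 0.15 and 0.19 without 2 kPa replicate 1, 2 kPa replicate 2 and 25 kPa replicate 3, respectively. For FHL2 and all 4 PDLIM genes the intervals reach changes in either direction, and they do not show that the levels are equal.

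The low values of these genes gathered in 1 library. 2 kPa replicate 3 held the lowest of the 6 values in 4 of the 5 FHL and PDLIM genes (80.0%), and in 28.8% of all genes. 2 kPa replicate 2 held the highest value in 3 of those 5 genes and in 26.8% of all genes. The part of these libraries in the wide intervals was not tested.

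**Figure D2:**
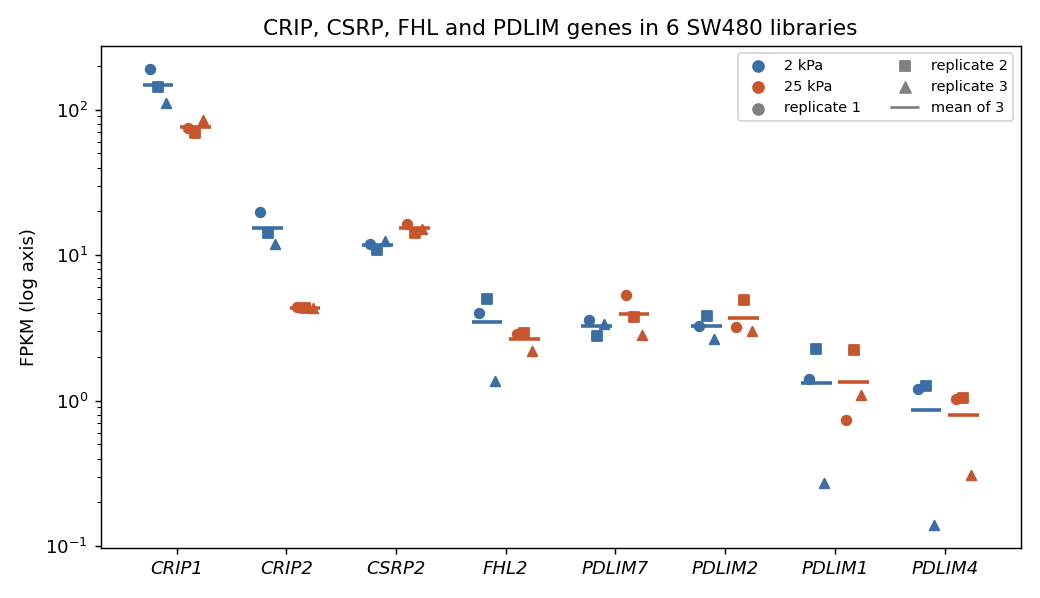
Level of the 8 CRIP, CSRP, FHL and PDLIM genes in each of the 6 SW480 libraries, in FPKM on a log axis, with blue for 2 kPa, red for 25 kPa, circles, squares and triangles for replicates 1, 2 and 3, and lines for the mean of 3 libraries. CRIP1 and CRIP2 are lower in all 3 stiff libraries and CSRP2 is higher in all 3, whereas the groups overlap for FHL2, PDLIM7, PDLIM2, PDLIM1 and PDLIM4.

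Of the 7 relatives of CRIP2, 0 passed an adjusted p of 0.05 by limma, where 0.117% of all 8529 genes did (0.0703% higher and 0.0469% lower at 25 kPa). At an unadjusted p under 0.05, 2 of the 7 were found, CRIP1 lower and CSRP2 higher, where 10.2% of all genes were found (6.96% higher and 3.19% lower). The groups did not overlap for the same 2 genes, where they did not overlap for 16.0% of all genes (11.2% higher and 4.78% lower at 25 kPa). The median log2 difference of the 7 relatives was 0.08, and that of all genes was 0.05. Without both CRIP genes, 4 of the other 6 members had a higher mean log2 value at 25 kPa, where 5081 of all 8529 genes did. The median difference of these 6 was 0.11.

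The order of the levels, which is per length in FPKM, changed at 1 place near the top. At 2 kPa it ran CRIP1, CRIP2, CSRP2, FHL2, PDLIM2, PDLIM7, PDLIM1 and PDLIM4 by mean FPKM. The ranges of neighbours were apart between CRIP1 and CRIP2, between CSRP2 and FHL2, and between PDLIM7 and PDLIM1, and the other neighbours overlapped. At 25 kPa it ran CRIP1, CSRP2, CRIP2, PDLIM7, PDLIM2, FHL2, PDLIM1 and PDLIM4. Here the ranges were apart for the first 2 steps and between PDLIM2 and FHL2. CRIP1 lay at percentile 97.2 of all genes at 2 kPa and 94.7 at 25 kPa. CSRP2 lay at percentile 76.8 at 2 kPa and 80.4 at 25 kPa, and the remaining 5 members lay between percentiles 27.6 and 57.4.

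The genes whose profiles lay closest to that of CRIP2 were sought over the 6 libraries, as a description. Likeness was the root mean square difference between log2(FPKM + 1) profiles after each gene's mean was removed, so that 0 is an identical profile, and the median over the 8528 other genes was 0.860. ISM1, which encodes the secreted protein isthmin, stood at 0.236. It read 21.7, 23.5 and 17.1 FPKM at 2 kPa and 7.74, 7.51 and 8.76 FPKM at 25 kPa. GADD45G, a gene of the growth arrest and DNA damage family, followed at 0.255. It was much less abundant, at 2.53, 2.06 and 2.84 FPKM at 2 kPa and 0.33, 0.31 and 0.34 FPKM at 25 kPa. The mean of GADD45G was 7.58-fold lower at 25 kPa, against 3.52-fold for CRIP2. With 1 added to FPKM their log2 differences were −1.38 and −1.58, so this likeness depends on the added 1. Unlike CRIP2, which was highest in 2 kPa replicate 1, ISM1 had its highest value in 2 kPa replicate 2 and GADD45G in 2 kPa replicate 3.

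EMP1, a membrane protein of epithelia, stood at 0.271, with 167, 128 and 89.6 FPKM at 2 kPa and 60.8, 52.4 and 61.2 FPKM at 25 kPa. COL6A1, a chain of type VI collagen of the matrix, stood at 0.314, with 31.8, 40.6 and 17.6 FPKM at 2 kPa and 8.77, 11.1 and 9.79 FPKM at 25 kPa. All 4 of these genes were lower in every stiff library than in any soft library, which a profile near that of CRIP2 requires. CRIP1 came 6th of 8528 at 0.345. The other relatives were less like CRIP2, from FHL2 in place 1561 at 0.774 to CSRP2 in place 7323 at 0.991. FHL2 and PDLIM4 (0.838) were nearer to CRIP2 than the median gene was.

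**Figure D3:**
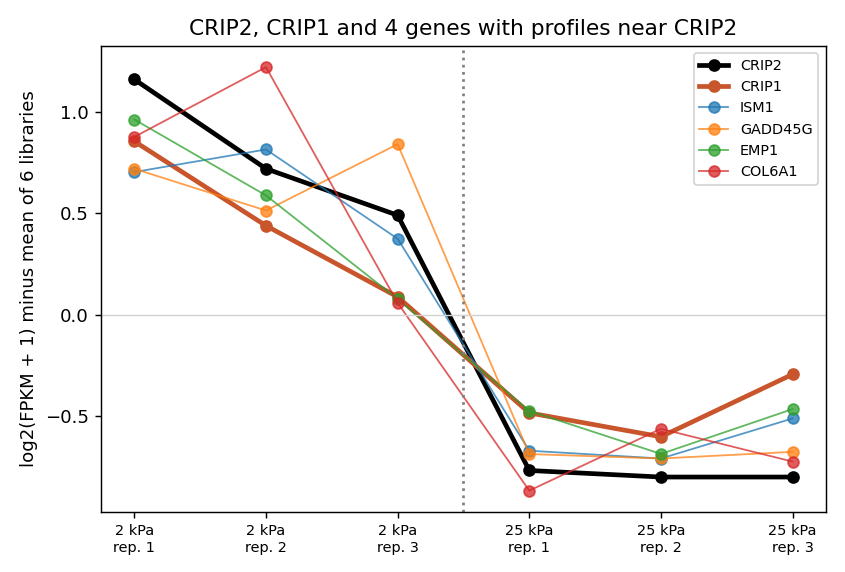
Profiles of CRIP2 (black), CRIP1 (thick red) and 4 genes with profiles near CRIP2 over the 6 libraries, as log2(FPKM + 1) minus each gene's mean, with the dotted line between 2 kPa and 25 kPa. ISM1 (root mean square difference 0.236) and the other 3 genes are below their means in all stiff libraries, while ISM1, GADD45G and COL6A1 depart from CRIP2 within the soft libraries.

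The genes beside CRIP2 on chromosome 14, CRIP1 included, gave no call. Of the 3 annotated genes on either side, TEX22, CRIP1 and TMEM121 were in the table, and MTA1-DT, MTA1 and TEDC1 were not analysed here. TMEM121, a membrane protein gene, read 4.75, 4.20 and 6.42 FPKM at 2 kPa and 3.74, 5.38 and 4.65 FPKM at 25 kPa. The groups overlapped, with a log2 difference of −0.13 (SE 0.22) and an adjusted p of 0.907 by limma. TEX22 was below 0.5 FPKM in all 6 libraries, with a log2 difference of −0.08 and an adjusted p of 0.858 by limma.

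The upstream sequence of the members was searched because CRIP1 and CRIP2 were both lower at 25 kPa. The window was the 250 bases before a RefSeq gene start (GRCh38.p14), which was found for 7 of the 8 genes, and for CRIP1 and CRIP2 it lies within the first exon of a longer GENCODE transcript. Both strands were read. The GC box GGGCGG occurred 5 times in the CRIP2 window and 1 time in the CRIP1 window, and it occurred in 7 of the 7 windows and in 42.6% of 35116 RefSeq windows. The TATA box TATAAA occurred in 0 of the 7 and in 10.7% of all windows. GGAATG, the core bound by TEAD factors, the DNA-binding partners of YAP and TAZ, occurred in 0 of the 7 and in 11.9% of all windows. The CArG box, bound by serum response factor, occurred in 1 of the 7, that of FHL2, and in 1.16% of all windows. A match is only a match of letters, and the lack of one holds only for this window. The 35116 windows take in every RefSeq start, whereas each member has 1 chosen start. GC content was not matched, so the shares are not a test of enrichment. The CRIP2 window had a GC content of 87.2% and the CRIP1 window 66.8%.

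The GC content of the transcripts themselves was also high for both CRIP genes, at 71.2% for CRIP2 and 66.2% for CRIP1, against a median of 50.1% over 8183 genes. CSRP2 (48.7%) and FHL2 (47.5%) lay below that median. After a trend with GC content was removed from each library, an alternative chosen after seeing the data, the log2 difference was −1.49 for CRIP2, −0.85 for CRIP1 (adjusted p = 0.201 by limma) and 0.28 for CSRP2 (adjusted p = 0.547).

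Other LIM-domain genes were taken from a list of 55, including LDB1 and LDB2, whose proteins bind LIM domains and hold none. The table held 20 genes of the list, LDB1 and LDB2 not among them. Of these, 13 had a higher and 7 a lower mean log2 value at 25 kPa, where 5081 of all 8529 genes were higher and 3448 lower. By limma, 0 of 20 were called, with a smallest adjusted p of 0.443. At an unadjusted p under 0.05, 1 of 20 was found, LMO7, against the 10.2% of all genes given above. The median difference was 0.09, and the differences ran from −0.50 to 0.50. In this fit no gene of the list differed by as much as CRIP1, but without 2 kPa replicate 1 LIMK2 (−0.81) differed by more than CRIP1 (−0.72). The 1 added to each FPKM also shrinks the differences of genes near or below 1 FPKM. With 0.1 added in its place, LMO7 stood at 0.91 and CRIP1 at −0.93, nearly the same size in opposite directions. These figures describe the list without a test against the CRIP genes.

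The 9 focal adhesion and scaffold genes had a median difference of 0.11, with 6 higher and 3 lower, against the counts of all genes given above. PRICKLE3, a planar polarity scaffold, read 0.37, 0.70 and 0.42 FPKM at 2 kPa and 0.66, 0.89 and 1.06 FPKM at 25 kPa (log2 difference 0.32, adjusted p = 0.523 by limma). TES, which encodes testin, a focal adhesion protein that binds zyxin, read 1.14, 1.32 and 0.95 FPKM at 2 kPa and 0.64, 0.40 and 1.03 FPKM at 25 kPa (log2 difference −0.35, adjusted p = 0.572, and −0.22 without 25 kPa replicate 2). LIMS1, which encodes the integrin adaptor PINCH1, was at or below 0.51 FPKM in each library (log2 difference 0.16, adjusted p = 0.772). Its difference became 0.31 without 2 kPa replicate 1 and 0.051 without 2 kPa replicate 2. The groups overlapped in each of these 3 genes.

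Among the 8 actin-binding and kinase genes the median difference was 0.02, with 5 higher and 3 lower, against the same counts of all genes. LMO7, a LIM protein of adherens junctions, read 0.67, 1.17 and 0.51 FPKM at 2 kPa and 1.76, 1.33 and 1.40 FPKM at 25 kPa, and was the only one of the 20 whose groups did not overlap, where 16.0% of all genes did not. Its means were 0.783 ± 0.344 and 1.50 ± 0.231 FPKM (SD, n = 3 each), with a log2 difference of 0.50 (SE 0.20) and an adjusted p of 0.443 by limma. The kinases that phosphorylate cofilin and so limit actin severing gave opposite signs without a call. LIMK2 read 6.89, 14.4 and 13.3 FPKM at 2 kPa and 5.31, 9.06 and 8.56 FPKM at 25 kPa (log2 difference −0.50, adjusted p = 0.596 by limma), and its difference became −0.81, −0.33 and −0.29 without 2 kPa replicate 1, 2 kPa replicate 2 and 25 kPa replicate 1. LIMK1 read 6.89, 12.5 and 9.53 FPKM at 2 kPa and 10.1, 12.1 and 12.4 FPKM at 25 kPa (log2 difference 0.26, adjusted p = 0.742 by limma), and its difference became 0.062 and 0.45 without 2 kPa replicate 1 and 2 kPa replicate 2.

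Only 3 LIM-only and LIM-homeobox transcription regulators were in the table, and none was called. LMO4 averaged 0.873 ± 0.0493 FPKM at 2 kPa and 1.13 ± 0.280 FPKM at 25 kPa (SD, n = 3 each, adjusted p = 0.805 by limma). ISL2 averaged 1.54 ± 0.422 and 1.26 ± 0.262 FPKM (adjusted p = 0.871), and LHX2 averaged 0.147 and 0.243 FPKM (adjusted p = 0.709).

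**Figure D4:**
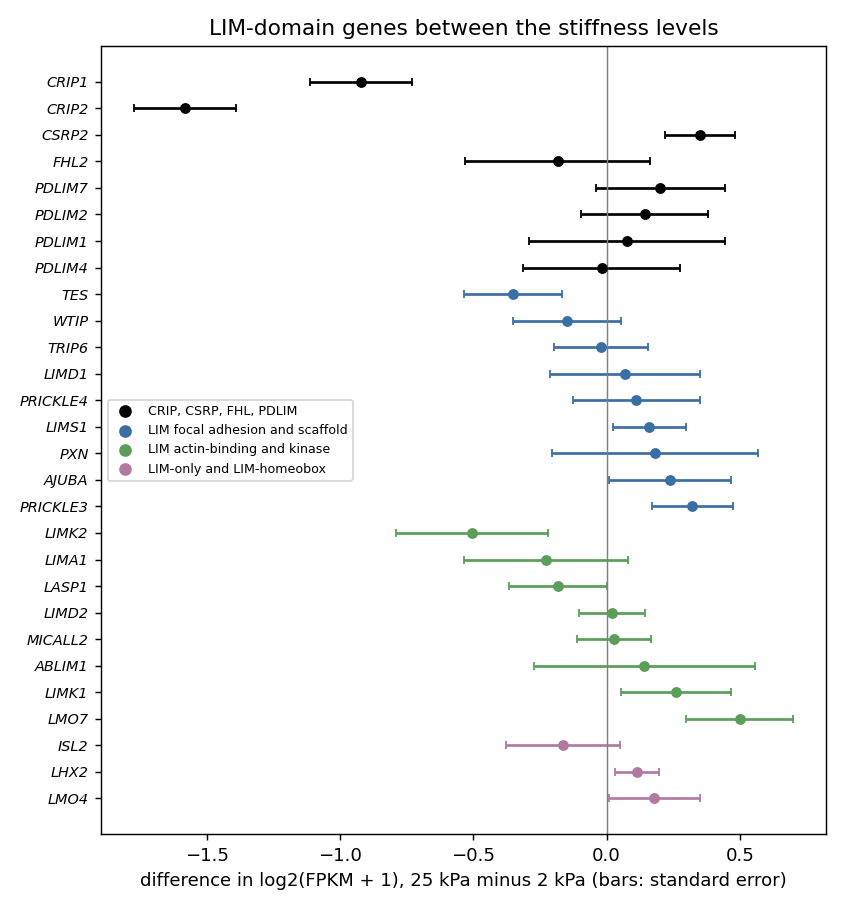
Difference in log2(FPKM + 1), 25 kPa minus 2 kPa, for the 8 CRIP, CSRP, FHL and PDLIM genes (black) and the 20 other LIM-domain genes (colours by group), with bars for the standard error from limma (3 libraries each). CRIP2 (−1.58) and CRIP1 (−0.92) lie to the left of all the other genes, which run from −0.50 to 0.50. The added 1 shrinks the differences of genes near or below 1 FPKM. With 0.1 added in its place, LMO7 is at 0.91 and CRIP1 at −0.93.

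The actin cytoskeleton that many of these LIM proteins bind was covered by a list of 35 partners and serum response factor targets, 21 of which were in the table. Of these, 8 had a higher and 13 a lower mean log2 value at 25 kPa, where 5081 of all 8529 genes were higher and 3448 lower. By limma 0 were called, and the median difference was −0.06. At an unadjusted p under 0.05, 4 of 21 were found, 2 in each direction, and 5 of 21 did not overlap between groups, against 10.2% and 16.0% of all genes. VASP, which promotes actin filament growth and is recruited by zyxin, read 57.5, 50.9 and 46.7 FPKM at 2 kPa and 36.9, 42.5 and 34.7 FPKM at 25 kPa, a log2 difference of −0.43 (SE 0.12) with an adjusted p of 0.275. CNN3, an actin-binding calponin, read 1.48, 1.16 and 0.62 FPKM at 2 kPa and 0.30, 0.35 and 0.53 FPKM at 25 kPa, a log2 difference of −0.56 (SE 0.18) with an adjusted p of 0.333. These values were lower in all stiff libraries than in any soft one.

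ACTA2, the smooth muscle actin, read 0.53, 1.66 and 1.33 FPKM at 2 kPa and 2.51, 2.09 and 2.44 FPKM at 25 kPa, a log2 difference of 0.66 (SE 0.25) with an adjusted p of 0.421 by limma. The difference became 0.42 without 2 kPa replicate 1. It was higher in every stiff library, at a level far below that of the cytoplasmic actin ACTG1, which ran from 939.5 to 1288 FPKM. ACTG1 itself was lower in every stiff library than in any soft one, with a log2 difference of −0.24 and an adjusted p of 0.752 by limma. 2 kPa replicate 2 held the highest value in 13 of the 21 genes (61.9%, against 26.8% of all genes), and 2 kPa replicate 3 the lowest in 10 (47.6%, against 28.8%).

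The libraries carried markers of an epithelial line. KRT18 averaged 2992 FPKM at 2 kPa and 2875 FPKM at 25 kPa, and EPCAM 74.2 and 85.0 FPKM. Of the intestinal markers, VIL1 averaged 20.1 and 17.3 FPKM, whereas CDX1, CDX2 and KRT20 were below 1 FPKM in all 6 libraries. Of 10 epithelial markers in the table, 0 were called by limma, and 8 had a lower mean log2 value at 25 kPa, where 3448 of all 8529 genes did. At an unadjusted p under 0.05, 2 of the 10 were lower, where 3.19% of all genes were, and 3 of the 10 (KRT19, CLDN4 and CDX2) were lower without overlap, where 4.78% of all genes were. The 3 fibroblast and muscle markers in the table lay between 0.01 and 0.55 FPKM, and the 4 blood and endothelial ones between 0.05 and 4.24 FPKM, with 0 called in each (0 of 3 and 1 of 4 at an unadjusted p under 0.05, against 10.2% of all genes). LYZ was the highest of them and was lower at 25 kPa without overlap (adjusted p = 0.523 by limma). The part of these markers in the levels of CRIP1 and CRIP2 was not tested. The FPKM of a library summed to between 201030 and 263028. GAPDH, a glycolytic gene used widely as a reference, was at only 0.32 to 3.35 FPKM. The reason was not tested, and the levels, orders and percentiles given above rest on the same deposited values. The table holds FPKM without read counts, the depth behind each value is unknown, and no counting interval is given.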

How the data were processed

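RNA from SW480 cells on 2 kPa or 25 kPa hydrogels was sequenced by the authors in 3 libraries per stiffness. The authors deposited FPKM per gene symbol and library, with 2 decimals and without pooling. The submitters' processing notes name HISAT, StringTie, Bowtie2, RSEM and the build hg18 without their roles, and filters are not given in the sources used here. The authors' methods name DESeq2, which needs counts and was not run on FPKM. FPKM is a share of a library, so a change in very abundant genes moves all others. The log2(FPKM + 1) values of all 8529 genes were compared, 25 kPa minus 2 kPa, by limma 3.58.1 in R 4.3.3 (eBayes with a trend, two-sided, Benjamini-Hochberg adjustment, threshold 0.05). Libraries were grouped by their labels, and 0 columns were left unassigned. Named were all CRIP, CSRP, FHL and PDLIM genes, the 3 genes of each other list with the smallest p, the 5 profiles nearest to CRIP2, and the 3 annotated genes on either side of it. 1 gene so named is not reported here. Marker genes and ACTG1 were named after their values were seen. The genes, lists and tests were chosen with earlier results of these data known. Positions came from GENCODE 29 on GRCh38 and upstream sequences from RefSeq on GRCh38.p14, and gene symbols joined them to the table. Of several RefSeq starts, the one with most GENCODE transcript starts within 50 bases was used. The alternatives were a pseudocount of 0.1, a mean FPKM of at least 1, equal library sums, median centring, quantile normalisation, eBayes without a trend, a replicate block, each library left out, and, chosen after seeing the data, removal of a GC trend (lowess, span 0.3). On simulated data for 25 kPa against 2 kPa, 200 of 8529 genes were changed by 1.5 on the log2 scale, 96.0% were recovered, and 3.03% of calls were false. The changed genes were drawn from those above a minimum mean level. The simulated noise was normal, with an SD set by the mean level and without library effects. Smaller differences, such as those of the relatives of CRIP2, were not simulated.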

Additional observations from a re-analysis of the deposited data

How the results depend on the processing

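Of the CRIP, CSRP, FHL and PDLIM genes other than CRIP2, of the other LIM genes and of the actin partners, 0 were called by limma in the main comparison and in each of 14 alternatives. The log2 difference of CRIP2 stayed between −1.76 and −1.40 over all 14. The count of all genes called was 10, and it moved to 17 with a pseudocount of 0.1 and to 6 by eBayes without a trend. With 1 library left out it ran from 3 to 11, and it was 5 without 2 kPa replicate 1, 5 without 25 kPa replicate 1, 3 without 25 kPa replicate 2 and 6 without 25 kPa replicate 3; the cause was not tested. With the replicate number as a block, 3 genes were called and the adjusted p of CRIP1 was 0.370. No pairing by number was seen in the values. Deviations of same-numbered libraries correlated at r = 0.115, −0.267 and −0.125 across genes, and not every library correlated best with its own number. With 3 libraries per stiffness, these correlations cannot show whether the cultures were paired.

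Directions turned in 4 genes that were not called. With 1 library left out, the log2 difference ran from −0.59 to 0.080 for FHL2, from −0.31 to 0.38 for PDLIM1, from −0.034 to 0.25 for PDLIM2 and from −0.34 to 0.19 for PDLIM4. PDLIM1 was −0.014 with equal library sums, and PDLIM4 was 0.015 with the GC trend removed and 0.11 with a pseudocount of 0.1. The minimum mean of 1 FPKM left no value for PDLIM4. Equal library sums moved the median of all genes from 0.05 to −0.02. The unknown depth leaves the precision of the low genes to the spread of 3 libraries.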
